A study of Homo sapiens with 7 samples.

Results

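The genes described here are 9 genes of MHC class I antigen presentation, taken by symbol from a Cuffdiff table of 63655 genes. They are the heavy chain genes HLA-B, HLA-C, HLA-E and HLA-F, the light chain gene B2M, the peptide transporter genes TAP1 and TAP2, the tapasin gene TAPBP and the trimming peptidase gene ERAP1. All 9 have a row on their own chromosome, and all 9 were tested by the authors. Each value is an FPKM, a fragment count divided by transcript length and by the number of mapped fragments. It corrects for transcript length, so that levels of different genes can be set side by side.

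Class I molecules display short peptides from inside the cell to CD8 T cells and natural killer cells. Proteasomes make the peptides, TAP1 and TAP2 together carry them into the endoplasmic reticulum, ERAP1 trims them there, and tapasin helps load them onto a heavy chain that is paired with beta-2-microglobulin, the product of B2M. Nearly all nucleated cells make class I, and interferon raises most genes of the pathway.

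RNA-seq was done on HEK293, an established human embryonic kidney line, here carrying FLAG-HA tagged CNBP; every sample shares this background. The labels give 3 control knockdown samples and 4 samples with knockdown of CNBP, a zinc finger protein that the series' title describes as a binder of G-rich elements. The deposited table gives every gene 1 pooled value in a column headed OE and another in a column headed siRNA, the 2 conditions. The siRNA heading was taken as CNBP knockdown because of its name and the design; what OE stands for, and which samples went into either condition, is not given in the sources used here, so a difference may hold overexpression as well as knockdown. No value has an SD or n, the depth of each sample is unknown, and the labels do not say whether samples were separate cultures, so the authors' p-values may measure technical spread.

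As a check of the headings, CNBP itself was listed at 579.8 FPKM in OE against 45.5 FPKM in siRNA, 12.7-fold lower, and the authors' deposited table gives q = 0.00791. Of 8 genes chosen as markers of HEK293, 7 were tested, and all 8 summed to 118 FPKM in OE against 178 FPKM in siRNA. Of the 7, 6 had a higher value in siRNA, with a median of 0.51 on the log2(FPKM + 1) scale, and 4 had p under 0.05 in the authors' deposited table. Over all tested genes the median was -0.01, and 10.9% had p under 0.05. The neurofilament gene NEFL rose from 35.9 to 64.7 FPKM, and the authors' deposited table gives q = 0.00791. It was the 1 marker of the 7 with q under 0.05, against 1.35% of all tested genes. Of 7 blood cell markers, 6 stayed under 1 FPKM in both conditions, and the list summed to 4.24 FPKM in OE against 2.86 FPKM in siRNA. The leukocyte gene PTPRC was at 0.125 and 0.117 FPKM. Fibroblast markers summed to 28.3 and 17.7 FPKM, most of it ACTA2 (21.1 and 12.5 FPKM), with none called; the part of these markers in the results was not tested.

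The sequences just upstream of 4 of these genes are shown first, because they set the called gene HLA-C beside its closest relatives and beside B2M, whose value went the other way. Each is the 190 bases before the RefSeq start, 5′ to 3′, from the GRCh38.p14 build: HLA-C at chr6:31272093-31272282 (minus strand), HLA-B at chr6:31357180-31357369 (minus strand), HLA-F at chr6:29723244-29723433 (plus strand) and B2M at chr15:44711327-44711516 (plus strand). Capitals mark matches on either strand to the NF-kB consensus, to a GAAA pair (GAAA, any 2 bases and GAAA again, the core of an interferon response element), to TTTCACT (part of the form of that element in HLA-B and HLA-C) and to CCAAT; neighbouring matches can overlap.
HLA-C: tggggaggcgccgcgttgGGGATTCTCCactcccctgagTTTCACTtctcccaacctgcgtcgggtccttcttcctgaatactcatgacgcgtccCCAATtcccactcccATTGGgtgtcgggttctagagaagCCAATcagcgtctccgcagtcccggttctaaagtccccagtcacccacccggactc
HLA-B: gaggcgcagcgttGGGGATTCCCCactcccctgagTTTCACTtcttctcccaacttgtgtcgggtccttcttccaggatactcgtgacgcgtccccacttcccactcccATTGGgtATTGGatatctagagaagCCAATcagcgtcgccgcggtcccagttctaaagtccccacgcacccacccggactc
HLA-F: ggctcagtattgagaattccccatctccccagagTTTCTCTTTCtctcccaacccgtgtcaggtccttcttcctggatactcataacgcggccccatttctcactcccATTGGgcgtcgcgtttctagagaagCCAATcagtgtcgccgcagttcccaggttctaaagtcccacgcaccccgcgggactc
B2M: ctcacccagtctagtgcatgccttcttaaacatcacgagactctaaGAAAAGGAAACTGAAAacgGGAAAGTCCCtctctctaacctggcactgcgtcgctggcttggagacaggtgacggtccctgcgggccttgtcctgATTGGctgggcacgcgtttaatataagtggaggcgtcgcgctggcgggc

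These are reference sequences and may differ from the alleles of HEK293. Over the aligned 190 bases HLA-C and HLA-B were 87.6% identical, HLA-C and HLA-F 79.7%, and HLA-C and B2M 46.9%. HLA-C and HLA-B share TTTCACT, which 3.64% of 35116 promoters and, of the other members, TAPBP hold within 250 bases before the start. HLA-F has the GAAA pair at the matching place, and B2M has overlapping copies of it. Of the 8 members with an entry in the RefSeq table, 5 hold the GAAA pair in those 250 bases, against 3.02% of all promoters; they are HLA-F, B2M, TAP1, TAP2 and TAPBP. The NF-kB consensus is in 6 of the 8 against 9.96%, CCAAT in 6 against 32%, and TGACG, the core of the cyclic AMP response element, in 4 against 21.2%. TAP1 and ERAP1 have 2 entries each, and a match in either was counted. HLA-E has no entry in that table. A match describes letters only.

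HLA-C was the 1 member of 9 that was called, and its value was lower in siRNA. A gene was called where the authors' deposited table gave a q-value under 0.05; among all 24822 tested genes 1.35% were called, and 0.782% were called lower. HLA-C (ENSG00000204525, hg19 chromosome 6, 31236526 to 31239907) encodes a classical heavy chain that also serves as a main ligand of killer cell immunoglobulin-like receptors. It was listed at 87.0 FPKM in OE against 49.2 FPKM in siRNA and so fell by 37.8 FPKM. It was thus 1.77-fold lower in siRNA, or -0.82 as the log2 ratio and -0.81 on the log2(FPKM + 1) scale, which shrinks the change of low genes and is used for all log2 values below. The authors' deposited table gives p = 5e-05 and q = 0.00791 for it, the smallest values the table holds, shared by 157 tested genes. Among the 71 called lower genes with a mean FPKM of 10 or more, HLA-C ranked 44 by size of fall. At that level 0.679% of tested genes were called lower. The median fall of these genes was 1.87-fold and their smallest 1.56-fold. In bulk RNA, fewer cells with the transcript and less of it per cell cannot be told apart. A fall as large on the log2 scale, called or not, was seen in 4.27% of the 10457 tested genes at that level.

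**Figure D1:**
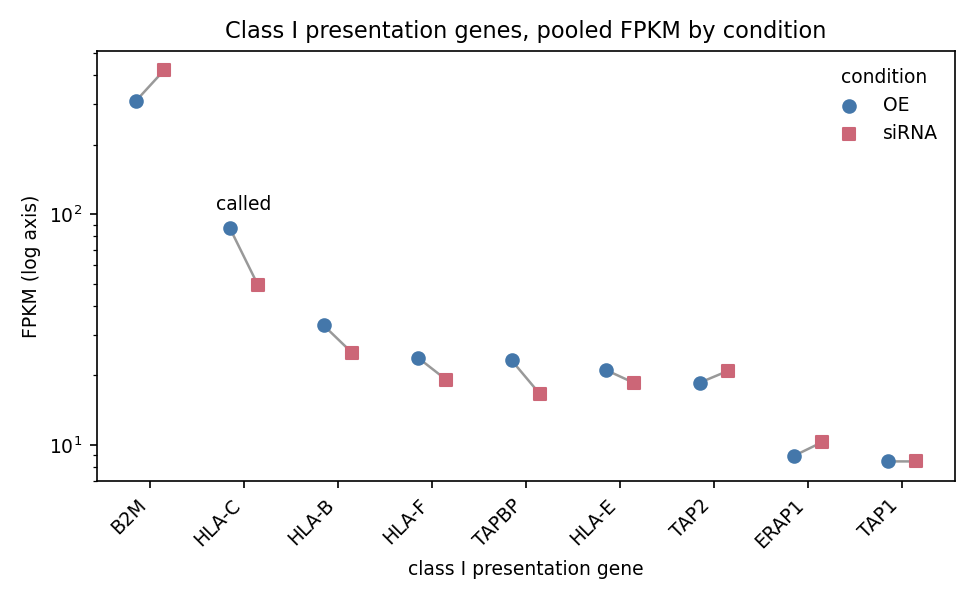
Pooled FPKM of the 9 class I presentation genes in OE (circles) and siRNA (squares), on a log axis, ordered by mean level; each point is the authors' single value for a condition, so no error bar can be drawn. B2M stands highest at 309 and 419.6 FPKM, and HLA-C, the called gene, drops from 87.0 to 49.2 FPKM.

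The other 3 heavy chain genes were also listed lower in siRNA, without a call. HLA-B (chromosome 6, 31321649 to 31325414), the other classical heavy chain of the set, was at 32.9 FPKM in OE against 25.1 FPKM in siRNA, -0.38 on the log2 scale, and the authors' deposited table gives p = 0.0763 and q = 0.548. HLA-F (29690552 to 29716826), a nonclassical chain, was at 23.9 and 19.2 FPKM, -0.30 on the log2 scale, and the authors' deposited table gives q = 0.875. HLA-E (30457244 to 30461982), which presents leader peptides of other heavy chains to the NKG2A receptor of natural killer cells, was at 21.1 and 18.6 FPKM, -0.18 on the log2 scale, and the authors' deposited table gives q = 0.924. Whether the HLA-C difference exceeds those of HLA-B, HLA-E or HLA-F was not tested, since the table gives no error for a fold.

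Summed over these 4 genes, heavy chain transcripts came to 165 FPKM in OE against 112 FPKM in siRNA, 1.47-fold lower. HLA-C made up 52.8% of the sum in OE and 43.9% in siRNA, and it accounts for 71.5% of the drop in the sum. Without it the sum was 77.9 and 62.8 FPKM, 1.24-fold lower. HLA-C stood at 2.65 times the level of HLA-B in OE and 1.96 times in siRNA.

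B2M, whose product pairs with class I heavy chains, had the highest level of the 9 and the largest value in the other direction. B2M (ENSG00000166710, chromosome 15, 45003675 to 45011075) was listed at 309 FPKM in OE against 419.6 FPKM in siRNA. That is 1.36-fold and 0.44 on the log2 scale, and the authors' deposited table gives p = 0.0287 and q = 0.348, so it was not called. The B2M value was 1.87 times the heavy chain sum in OE and 3.74 times in siRNA. These are transcript levels; neither protein nor surface class I was measured here.

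The 4 genes of peptide supply and loading gave no call and no common direction. TAPBP (chromosome 6, 33267471 to 33282164), which encodes tapasin, the bridge between the transporter and the heavy chain, was at 23.2 FPKM in OE against 16.6 FPKM in siRNA. Its log2 value was -0.46, the second lowest of the 9, and the authors' deposited table gives p = 0.0204 and q = 0.30. TAP1 (32808494 to 32827362) was at 8.48 FPKM in OE against 8.47 FPKM in siRNA, and the authors' deposited table gives p = 0.998. TAP2 (32780540 to 32806599), the partner subunit, was at 18.6 and 20.9 FPKM, 0.16 on the log2 scale. TAP2 thus stood at 2.19 times TAP1 in OE and 2.47 times in siRNA. ERAP1 (chromosome 5, 95220802 to 96143803), the peptidase that shortens peptides in the endoplasmic reticulum, was at 8.94 and 10.3 FPKM, 0.18 on the log2 scale. Both TAP2 and ERAP1 had q = 0.999 in the authors' deposited table.

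Over the 9 members, 6 had a lower and 3 a higher value in siRNA, with a median of -0.18 on the log2 scale; over all tested genes the median was -0.01, and 0.08 at a mean FPKM of 10 or more. Before adjustment 3 of 9 members had p under 0.05 in the authors' deposited table (HLA-C and TAPBP lower, B2M higher), against 10.9% of all tested genes. Ordered by mean level, B2M came first, followed by HLA-C and HLA-B, then HLA-F, TAPBP, HLA-E and TAP2 close together, and ERAP1 and TAP1 last. No spread is at hand to say which neighbours in that order differ.

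The symbols of these genes also occur on other rows. Of 51 rows that carry one of the 9 symbols, 41 lie on alternative contigs, the extra copies of the MHC region in hg19. All 41 are listed at 0 in both conditions and none was tested, and the same holds for all 2329 rows on MHC haplotype contigs. Adding them therefore changes no value. A second chromosome 6 row named TAP2 (ENSG00000250264), at 0.133 and 0.311 FPKM, was not tested.

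Some loci in the table are bundles of overlapping genes. The ERAP1 locus spans 923.0 kb and is shared with 16 other rows, CAST among them. TAP1 shares its locus with PSMB9 and PSMB8, TAP2 with HLA-DOB, HLA-F with 5 rows that include its antisense gene HLA-F-AS1, and HLA-B with 1. HLA-C, HLA-E, B2M and TAPBP have loci of their own. Strand use in the counting is not given in the sources used here, so values of overlapping genes are uncertain.

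Stretches of these transcripts also occur in other genes. Of the stretches of 50 bases in the longest coding transcript of each member in GENCODE 29, 6.71% in HLA-C also occur in a transcript of another gene, 5.76% in HLA-E, 20.96% in HLA-B and 41.7% in HLA-F, and 0 in B2M. HLA-C shares 1.99% of its stretches with HLA-B. With any other member, HLA-B shares at most 2.00% and HLA-F at most 1.39%. Overlapping genes on either strand count here too, as for TAP2 at 35.8%, so the larger shares need not come from class I relatives. How the authors' pipeline placed reads that fit several genes or alleles is not stated, so FPKM of the HLA genes, and of HLA-F and HLA-B most of all, are uncertain, and the part of this in the HLA-C difference was not tested.

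Other genes that feed the pathway gave no call. Of 9 further loading genes, all tested, 8 had a higher value in siRNA and the median was 0.15 on the log2 scale. The chaperone genes CANX (466 and 543 FPKM) and HSP90B1 (228 and 281 FPKM) were the most abundant. CALR, which holds the heavy chain in the loading complex, was at 189 and 193 FPKM, and PDIA3, its disulfide isomerase partner, at 44.9 and 53.3 FPKM. TAPBPL, a tapasin relative that edits peptides, was at 1.99 and 1.91 FPKM, and ERAP2, a second trimming peptidase, at 9.36 and 9.70 FPKM.

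The proteasome subunits tested numbered 10 of 11, with none called and a median of 0.20 on the log2 scale. The catalytic subunit gene PSMB5 was highest, at 66.5 and 78.9 FPKM, and PSMB7 followed at 55.4 and 62.1 FPKM. Their interferon-inducible counterparts were low: PSMB10 was at 6.82 and 10.5 FPKM and PSMB9 at 1.54 and 1.65 FPKM. PSMB8 was at 0.153 and 0.135 FPKM and was not tested.

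None of 19 genes of the transcription regulator list was called, and their median was 0.26 on the log2 scale. Of the 19, 14 had a higher value in siRNA. The 5 with a lower value were NLRC5, RFX5, RFXAP, RFXANK and CREB1. Before adjustment 4 of the 19 had p under 0.05 in the authors' deposited table, against 10.9% of all tested genes. These were NFYA, NFYB, ATF1 and IFNGR1, all with a higher value in siRNA. NLRC5, the transactivator of class I promoters, was at 8.45 and 6.59 FPKM, and the authors' deposited table gives q = 0.999. RFX5, a subunit of the factor that binds the X box of those promoters, was at 48.5 and 42.5 FPKM. IRF1, a mediator of interferon responses, was at 6.87 and 7.43 FPKM. EZH2, a histone methyltransferase known to silence class I genes in tumours, was at 41.4 and 49.8 FPKM, and NFYC, a CCAAT-binding subunit, at 40.6 and 51.1 FPKM. RFXANK had the lowest log2 value of the list, -0.76, at 21.2 and 12.1 FPKM, and the authors' deposited table gives q = 0.598.

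Interferon-stimulated genes outside class I had 1 call among 22 tested, of 27 named, where 1.35% of all tested genes were called. Before adjustment 5 of the 22 had p under 0.05 in the authors' deposited table, 4 lower and 1 higher. Among all tested genes that share was 10.9%. ISG15, a ubiquitin-like modifier, fell from 30.7 to 17.1 FPKM, -0.80 on the log2 scale, and the authors' deposited table gives q = 0.0177. BST2 had the lowest log2 value of the list, -0.86, at 9.94 and 5.05 FPKM, and the authors' deposited table gives q = 0.108. Of the 22, 16 had a lower value and the median was -0.11; the most abundant were TRIM22, at 109 and 101 FPKM, and ISG15.

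Relatives of class I outside the presentation pathway, 15 named and 10 tested, gave no call, with 5 higher and 5 lower. FCGRT, the heavy chain of the neonatal Fc receptor and a partner of B2M, was at 54.7 and 38.7 FPKM, and MICB, a stress ligand of the NKG2D receptor, at 23.9 and 25.99 FPKM. HLA-G was at 0.0296 and 0.0345 FPKM and was not tested.

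**Figure D2:**
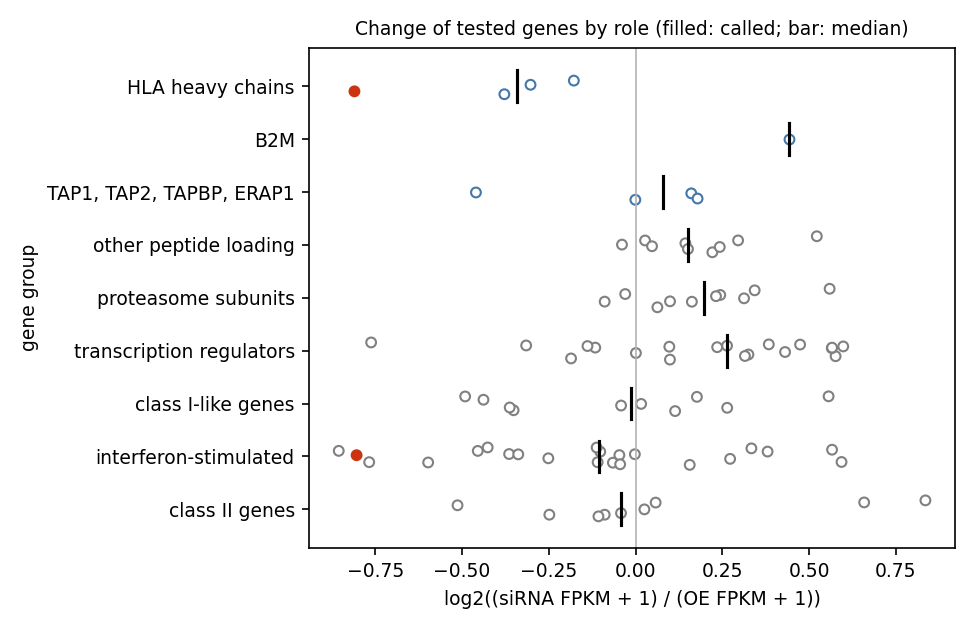
Change of each tested gene on the log2(FPKM + 1) scale (siRNA over OE, horizontal axis) by role; each circle is 1 gene, filled circles are called and the bar is the group's median. The 4 heavy chain genes lie between -0.81 and -0.18, B2M at 0.44, and the only filled circles are HLA-C and ISG15.

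The base content of the transcripts moved with these values. HLA-C has 60.0% GC in its longest coding transcript, HLA-B 58.95%, HLA-F 57.7%, TAPBP 57.6%, TAP1 57.5%, HLA-E 54.8% and TAP2 49.1%, while ERAP1 has 39.7% and B2M 39.4%. Over the 9 members Spearman's rho between GC content and log2 change was -0.933 and Pearson's r -0.846, given as a description: the points share 1 table, and 4 of them are sequence relatives. Among 12975 coding genes with a mean FPKM of 1 or more, the median change was 0.28 in the decile lowest in GC and -0.22 in the highest.

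Set against the genes of their own GC decile, HLA-C stood furthest from the median. HLA-B and HLA-C fall in decile 9, whose median change was -0.16; HLA-C lay 0.65 below it, and 2.93% of the 1297 genes there went at least as low. Of those 1297 genes, HLA-C among them, 24 were called lower and 4 higher. In decile 1, the lowest in GC, 0 of 1298 genes were called lower and 28 higher. HLA-B lay 0.21 below that median, and 24.7% went at least as low. TAPBP was 0.35 below the median of decile 8, with 13.3% at least as low. B2M lay 0.23 above the median of decile 2, with 20.4% at least as high, and ERAP1 0.03 below the same median. The part of base content in the HLA-C difference was not tested further.

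**Figure D3:**
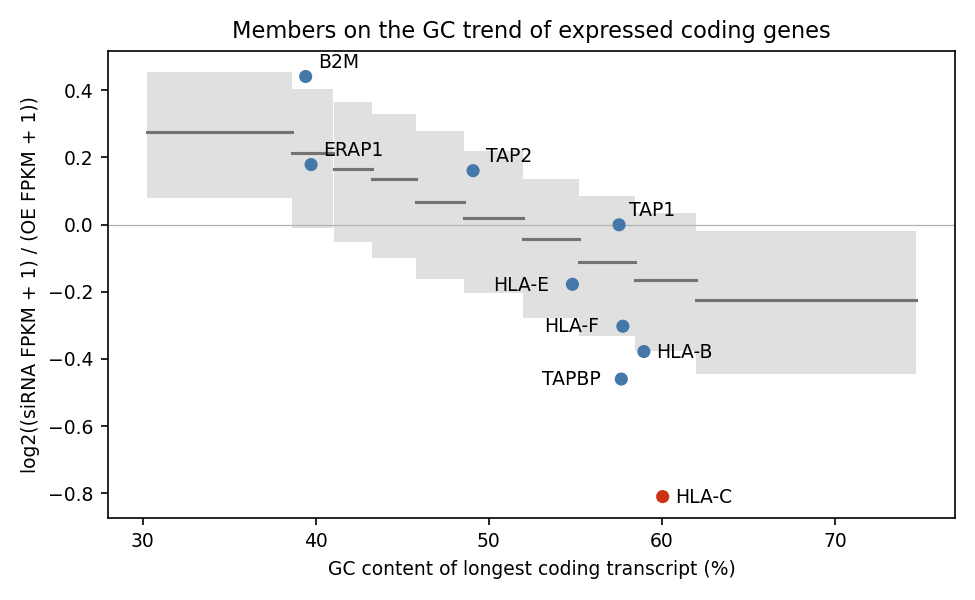
Change on the log2(FPKM + 1) scale against the GC content of the longest coding transcript. Grey lines are the medians and grey bands the quartile ranges of 10 GC deciles of 12975 coding genes, and points are the 9 members; HLA-C, at 60.0% GC and -0.81, lies under the band of its decile, and B2M, at 39.4% GC and 0.44, just above its own.

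Short G-rich runs were counted as a further feature, because the series' title names G-rich elements. The 4 heavy chain genes are sequence relatives, so their densities are not independent of each other. GGAG, read on the transcript strand, occurred 15.4 times per kb in HLA-C, 14.7 in HLA-F, 14.2 in HLA-B and 13.8 in HLA-E, against a median of 6.90 per kb in the 12975 coding genes. Between 2.47% of those genes, for HLA-C, and 5.11%, for HLA-E, held it as densely. In the deciles of like GC content the medians were 8.49 to 10.3 per kb, below all 4 of these densities. The remaining members had fewer, TAP1 9.12, TAP2 8.09, TAPBP 7.45, B2M 6.45 and ERAP1 4.004 per kb. TAPBP had the second lowest log2 value of the 9 with a density close to the median, and HLA-E, with a high density, was among the smaller changes. Letters in a transcript do not show binding, and the part of this feature was not tested.

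Position was examined last, since 7 members lie in the MHC region. Of 202 tested genes that start between 28 and 34 Mb on chromosome 6 (hg19), 5 were called (2.48%, against 1.35% of all tested genes), 2 lower and 3 higher. HLA-C and MSH5, a gene of meiotic recombination that went from 64.5 to 27.98 FPKM, were the 2 called lower. The 3 called higher were IER3 (2.93 and 6.94 FPKM), HSPA1B (80.2 and 127 FPKM) and PGBD1 (5.45 and 9.06 FPKM). MSH5, at -1.18 on the log2 scale, has the same locus start as SAPCD1 (-1.39) and SAPCD1-AS1 (-1.10), neither of them called. Of the 177 with a mean FPKM of 1 or more, 119 had a lower value, with a median of -0.11; over all 21820 tested genes at that level 10851 had a lower value and the median was 0.0027. Among the nearest 4 such neighbours on each side of HLA-C, named for their position, none was called: CCHCR1 was at 30.7 and 20.2 FPKM, TCF19, a cell cycle gene, at 24.3 and 14.8 FPKM, and the authors' deposited table gives q = 0.0831, and POU5F1 at 3.27 and 2.75 FPKM on one side. On the other, beyond HLA-B, the stress ligand gene MICA was at 10.5 and 15.9 FPKM, and the authors' deposited table gives q = 0.212. Of 10 genes beside TAP and tapasin, 9 were tested and none called, with a median of 0.06; RPS18 was at 2324 and 2689 FPKM and BRD2 at 335 and 390.4 FPKM.

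**Figure D4:**
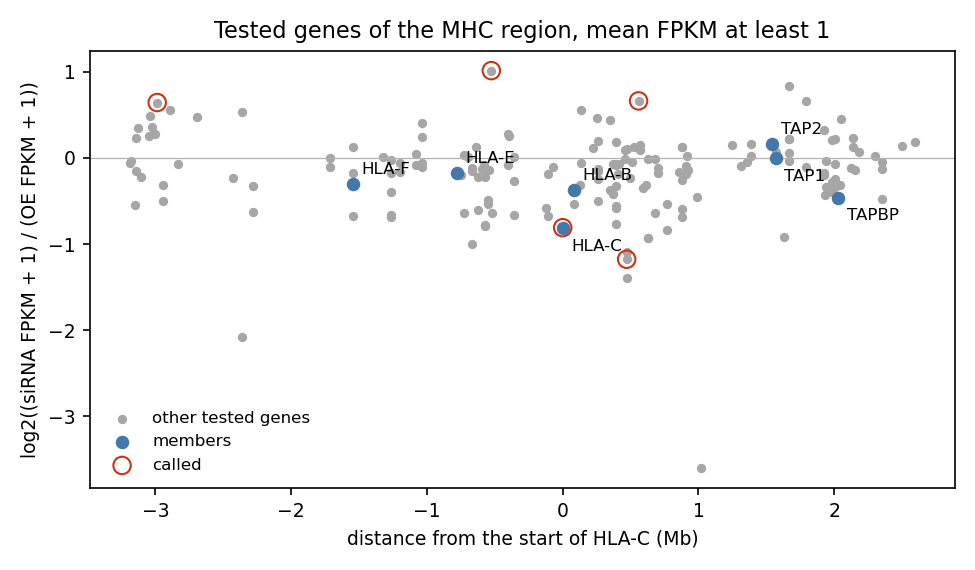
Change on the log2(FPKM + 1) scale of 177 tested genes of the MHC region with a mean FPKM of 1 or more, by distance from the start of HLA-C in Mb (chromosome 6). Blue points are the 7 members that lie there and rings are called genes; HLA-C, at -0.81, lies among genes of which 119 of 177 had a lower value in siRNA.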

How the data were processed

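The authors' deposited table holds FPKM per gene for 2 pooled conditions, and a p-value and a q-value from their test of them; per the submitters' processing notes they used TopHat, Cufflinks and Cuffdiff on hg19, with versions, settings and annotation not given in the sources used here. The labels describe 7 samples, but no value per sample, so no test across samples was made and depth is unknown. The authors' status column marks 24822 genes as tested. Folds were recomputed from the FPKM with a pseudocount of 1; the deposited fold column, damaged in places by a spreadsheet, was not used. Starts of loci are 0-based in the file and are given here 1-based. Symbols were matched on the gene's own chromosome; 4 symbols that the spreadsheet had changed (MARCH1, MARCH4, MARCH8 and MARCH9) were matched by Ensembl ID. Every member was named, and from each list its called genes, its 2 most abundant ones and some fixed by name. The members and the 9 gene lists were chosen with earlier results of these data known. Other genes named (RFXANK, RFXAP, CREB1, NFYA, NFYB, ATF1, IFNGR1, BST2, HLA-G, MSH5, SAPCD1, SAPCD1-AS1, IER3, HSPA1B, PGBD1, NEFL, POU5F1, CCHCR1, TCF19, MICA, PTPRC, ACTA2 and those in the closing section) were chosen after their values were seen or for their position. GC content, GGAG density and shared stretches of 50 bases came from the longest coding transcript in GENCODE 29 (GRCh38), joined by gene ID, and promoters from RefSeq (GRCh38.p14). The Benjamini-Hochberg code was tested on simulated data. Alternatives changed the threshold, level filter, pseudocount and scaling. Scripts ran in Python 3.11.15 with Biopython 1.88, scipy 1.17.1, pandas 2.3.3 and numpy 2.4.6.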

Additional observations from a re-analysis of the deposited data

How the results depend on the processing

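On the log2 scale HLA-C ranged from -0.86 to -0.81 under the 5 alternatives run on it, and it was the 1 called member at q-values under 0.01, 0.05 and 0.1. None of the 9 members changed direction under a pseudocount of 0.1, no pseudocount, either scaling, or the sum over all rows of its symbol; B2M ranged from 0.39 to 0.44 and TAPBP from -0.51 to -0.46. TAP1, at -0.0005, stayed below 0 only by amounts too small to read, down to -0.05. The median of the members was -0.18, but -0.30 over those with a mean FPKM of 10 or more, where TAP1 and ERAP1 drop out, and -0.089 without HLA-C, a choice made after seeing the data, as was the FPKM sum scaling of that median. Over all tested genes, 336 were called, with 157 at a q-value under 0.01, 575 at 0.1 and 149 at a mean FPKM of 10 or more, by construction. No paired analysis was possible because the file pools the samples, and leaving out a replicate was not run for the same reason. Depth per sample is unknown, so what it limits cannot be given.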

Other observations

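Class II genes serve to present peptides to CD4 T cells and are made mainly by immune cells. In this kidney line they were listed at 0 to 16.4 FPKM in OE and at 0.00595 to 15.1 FPKM in siRNA. Of 10, 9 were tested and none was called, with a median of -0.04 on the log2 scale. HLA-DPB1 was highest in both conditions, at 16.4 FPKM in OE against 15.1 FPKM in siRNA, and HLA-DPA1 was at 5.50 and 9.26 FPKM. HLA-DRA, a chain that class II molecules of the DR type need, was listed at 0 in OE and at 0.00595 FPKM in siRNA, while HLA-DRB1 was at 6.56 and 6.11 FPKM. CIITA, the class II transactivator, was at 1.94 and 1.47 FPKM and the invariant chain gene CD74 at 2.51 and 1.46 FPKM.

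Of 9 class I pseudogenes, 3 were tested and none was called, with a median of -0.18; 7 of the 9 stayed under 1 FPKM in both conditions. HLA-L was at 2.24 and 3.28 FPKM and HLA-J at 2.29 and 1.07 FPKM. Of 9 genes of class I turnover and trafficking, 8 were tested and none was called, with a median of 0.10; BCAP31, a cargo receptor of the endoplasmic reticulum, was at 78.9 and 74.4 FPKM and SEC61A1, a translocon subunit, at 54.7 and 60.8 FPKM. MARCH9, a ubiquitin ligase that removes class I from the surface, was at 18.2 and 19.4 FPKM, and MARCH4, a related ligase, was at 0.0121 FPKM in OE and listed at 0 in siRNA.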
